A study of Rattus norvegicus with 9 samples.

Results

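The cytochrome P450 family was followed in the kidney of rats given colistin. Members were the genes whose symbol starts with Cyp and a digit and that had a probe set annotated to no other gene. Cyp24a1, Cyp27b1 and Cyp51, of vitamin D metabolism and sterol synthesis, were set aside. This gave 56 genes of the 14217 genes on the array, each read from its probe set of highest average signal.

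Cytochromes P450 are haem proteins that insert an oxygen atom into fats, steroids, vitamins and drugs, with electrons passed on by a reductase. The liver uses many of them to clear drugs, and the kidney is best known for those that act on arachidonic acid. Cyp4a and Cyp4f enzymes hydroxylate it to hydroxyeicosatetraenoic acids, which constrict renal vessels, and Cyp2c and Cyp2j enzymes turn it into epoxides, which relax vessels and affect sodium transport. Other members make steroid hormones or bile acids or break down retinoic acid.

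Kidneys came from Sprague-Dawley rats bought at 8 weeks of age and acclimated for 1 week. The rats received colistin methanesulfonate sodium (CMS), the inactive form in which the antibiotic colistin is injected, dissolved in saline, into the peritoneum once a day for 7 d. The vehicle group received 0 mg/kg, the CMS25 group 25 mg/kg and the CMS50 group 50 mg/kg, with 3 rats and 3 arrays in each group and no genetic change in any. The labels record no lesion for vehicle, dilated tubules with basophilia for CMS25, and for CMS50 necrosis with degenerated or dilated tubules and casts. The sex of the rats is not given in the labels used here. RNA came from the whole right kidney, so that fewer cells of a type and less RNA per cell cannot be told apart in any of the differences given. Values are log2 intensities, where a difference of 1 is a doubling, and the number of arrays limits their precision.

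The tissue carried its defining markers. The 15 proximal tubule markers averaged 12.03 to 12.26 on the vehicle arrays, 12.14 to 12.33 on CMS25 arrays and 11.52 to 11.96 on CMS50 arrays. The 11 macrophage markers averaged 5.33 to 5.46, 5.13 to 5.52 and 6.35 to 7.18, and the 7 fibroblast markers 6.43 to 6.64, 5.79 to 7.00 and 7.27 to 8.23. The excess of 3′ over 5′ signal of beta-actin, which grows as RNA is degraded, was 2.98 ± 0.155 (SD, n = 3) log2 units in vehicle and 3.58 ± 0.0854 (SD, n = 3) in CMS50. That of GAPDH was 0.542 ± 0.0286 and 0.816 ± 0.0622. For both controls the exact two-sided permutation p between these groups was 0.1, the smallest that 3 against 3 arrays allow. In CMS25 beta-actin gave 3.17 ± 0.12 and GAPDH 0.698 ± 0.209 (SD, n = 3). The same permutation test of CMS50 against CMS25 gave p = 0.1 for beta-actin and 0.5 for GAPDH. For CMS25 against vehicle it gave 0.3 and 0.4.

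Vehicle replicate 1 stood apart from the other 8 arrays in some P450 genes that are known from rat liver. On that array 7 of the 56 members lay at least 1 log2 unit above every other array, against 45 of all 14217 genes (0.317%). Cyp3a2, a drug-oxidising enzyme of male rat liver, read 7.65 there and 2.80 to 3.53 elsewhere. Cyp2c7 read 7.26 against 3.18 to 3.97, and Cyp2c6v1 read 6.70 against 2.91 to 3.34. The other four were Cyp2c13 at 5.89, Cyp3a23-3a1 at 5.31, Cyp2a2 at 5.25 and Cyp3a18 at 5.09, with gaps of 1.17 to 2.50 to the next array. Cyp2c12, known from female rat liver, read 3.37 on that array and 3.05 to 3.76 on the others. Cyp8b1, a bile acid enzyme of liver, did not stand apart either, with 5.65 there and 3.69 to 6.45 on the others. Of 6 hepatocyte markers on the array, 5 were at least 1 log2 unit higher there than anywhere else: albumin (Alb) read 10.48 against 3.69 to 5.29, and the list averaged 7.00 against 3.64 to 4.31. Tat, the sixth, read 4.08 against 3.60 to 4.02. All 7 P450 genes had a mean under the log2 value of 5 required for testing. The part of liver RNA in the other P450 values of this array was not tested, so the family calls and some members are also given without it. The lists of related enzymes are given only with this array. CMS50 replicate 2 was at least 1 log2 unit above all others in 41 genes and CMS25 replicate 1 in 18, the latter including Cyp2c11.

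**Figure D1:**
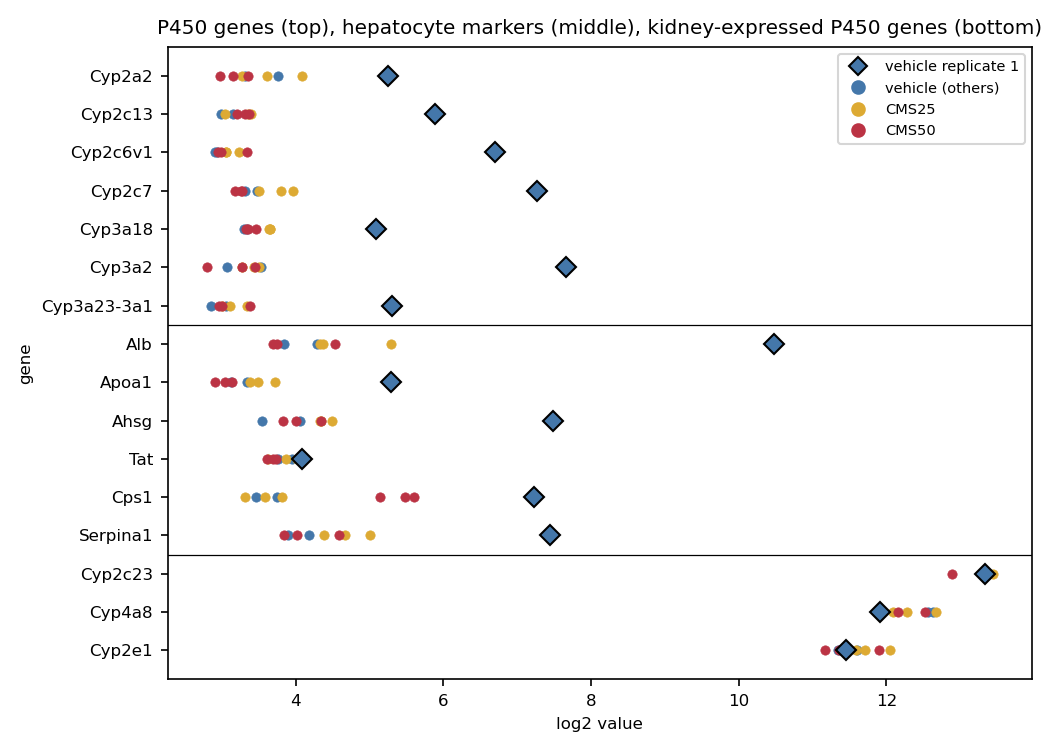
Log2 value (x axis) of 7 P450 genes, 6 hepatocyte markers and 3 kidney-expressed P450 genes (y axis) on the 9 arrays, with vehicle replicate 1 as outlined diamonds and the other arrays as circles coloured by group. Vehicle replicate 1 lies to the right of all other arrays for the 7 P450 genes and, for example, at 10.48 for Alb, and lies close to or among the others for Cyp2c23, Cyp4a8 and Cyp2e1.

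Of the 56 members, 23 reached a mean log2 value of 5 over the 9 arrays and were tested, and 33 did not. The tested members were 7 of 10 in the Cyp4 family, 4 of 10 in Cyp2c and Cyp2j, 6 of 15 in the rest of Cyp2, 3 of 6 sterol and bile acid enzymes, and 1 each of 3 Cyp1, 2 Cyp26 and 1 Cyp20 genes. None of the 4 Cyp3 genes and none of the 5 steroid hormone enzymes reached it. The 5 steroid hormone enzymes, Cyp11a1, Cyp11b1, Cyp17a1, Cyp19a1 and Cyp21a1, ranged from 2.60 (Cyp11b1) to 5.34 (Cyp11a1) over all arrays. Of the 4 adrenal cortex markers on the array, Star read 4.14 to 4.47 and Nr5a1 3.55 to 4.17 over all arrays, both under the minimum. The other two were tested: Mrap read 8.33 to 8.36 in vehicle and 6.05 to 6.63 in CMS50 and was called lower (-1.95, limma adjusted p = 0.000684), and Hsd3b1 read 5.90 to 6.63 and 5.20 to 6.25 and was not called. The 4 averaged 5.61 to 5.80 on vehicle, 5.47 to 5.96 on CMS25 and 4.86 to 5.31 on CMS50 arrays, and the part of adrenal tissue in the steroid enzyme values was not tested.

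**Figure D2:**
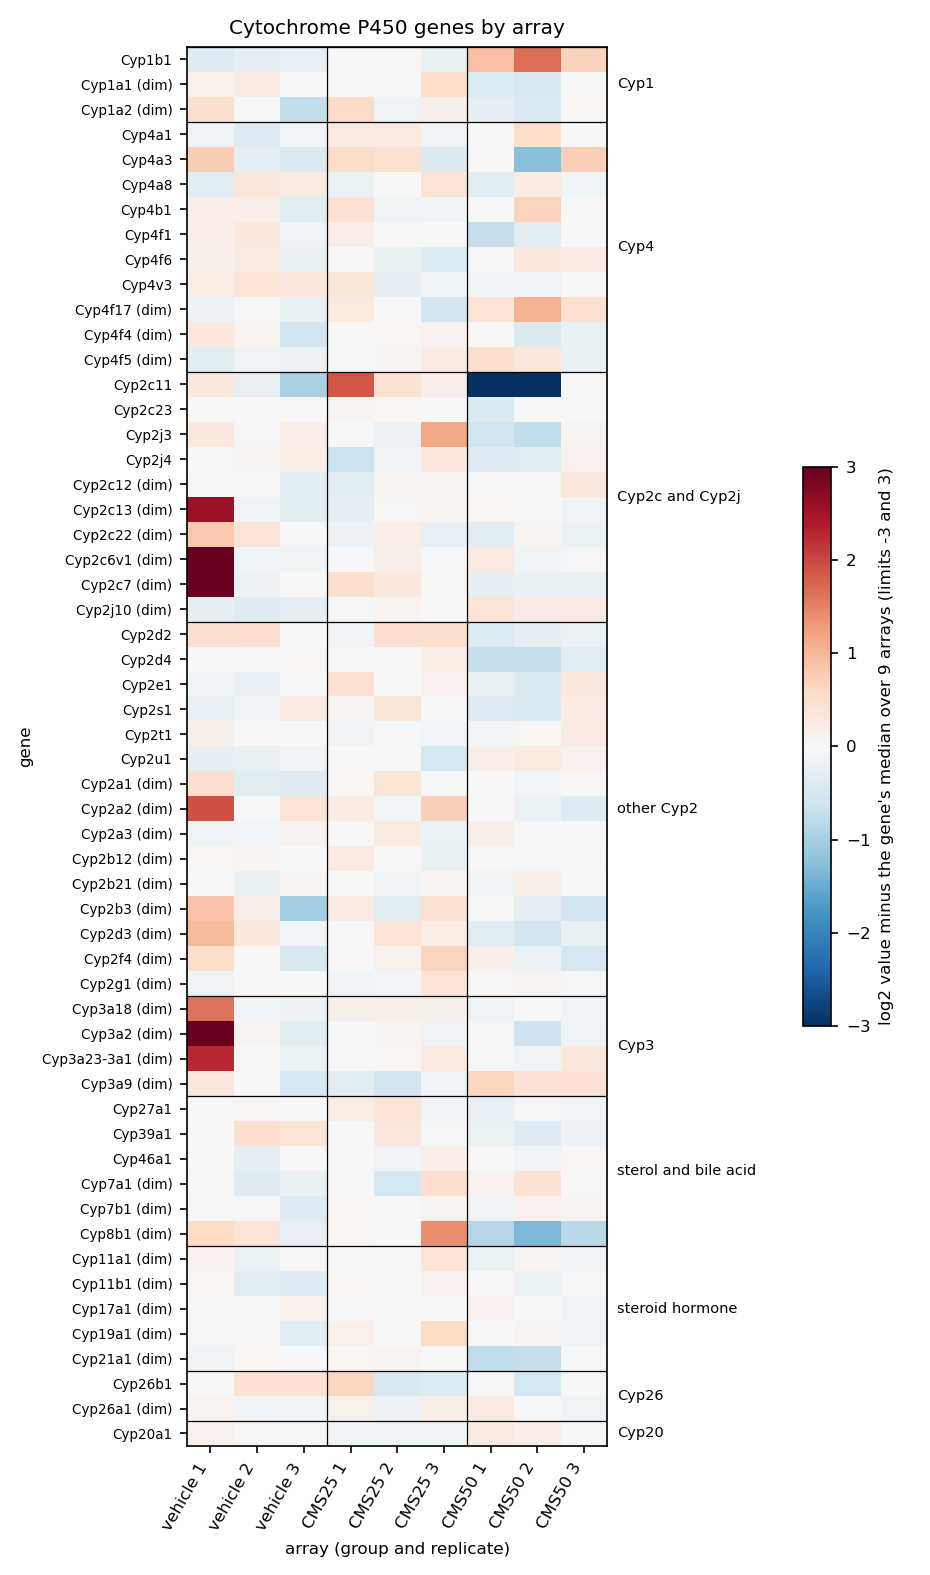
Heat map of the 56 P450 genes (rows, grouped by role, those under the minimum marked dim) on the 9 arrays (columns); colour is the log2 value minus the gene's median over the arrays, limited to -3 and 3. Vehicle replicate 1 is red in 7 dim liver genes such as Cyp3a2 (7.65), and CMS50 replicates 1 and 2 are dark blue for Cyp2c11 (4.52 and 4.71).

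The first comparison asked which P450 genes differ after 50 mg/kg. Between CMS50 and vehicle, Cyp1b1 rose and Cyp2d2, Cyp2d4 and Cyp39a1 fell, while none of the 7 tested Cyp4 hydroxylases and none of the 4 tested Cyp2c and Cyp2j epoxygenases passed the test. A gene was called at a Benjamini-Hochberg adjusted p under 0.05 in limma, which fitted all 10337 tested genes. By that rule 4 of the 23 tested members were called (17.4%), beside 31.1% of all tested genes. The 1 higher call stood beside 19.6% of all genes called higher, and the 3 lower calls beside 11.4% called lower. The median difference was -0.17 over the 23 members and 0.05 over all tested genes. At an unadjusted p under 0.05 there were 8 members and 4491 genes. The arrays of both groups did not overlap for 8 of the 23 members, 3 higher and 5 lower, beside 49.6% of all tested genes. Leaving out vehicle replicate 2, CMS50 replicate 1 or CMS50 replicate 2 left only the calls of Cyp1b1 and Cyp2d4. With vehicle replicate 1 left out, the calls were Cyp1b1, Cyp2d4 and Cyp39a1. Of all genes, 3211 were called, and 1852, 1711 and 1687 with the same respective array left out (vehicle replicate 2, CMS50 replicate 1, CMS50 replicate 2). The count without vehicle replicate 1 lay within 1687 to 3546, the range over all fits that leave out 1 array.

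**Figure D3:**
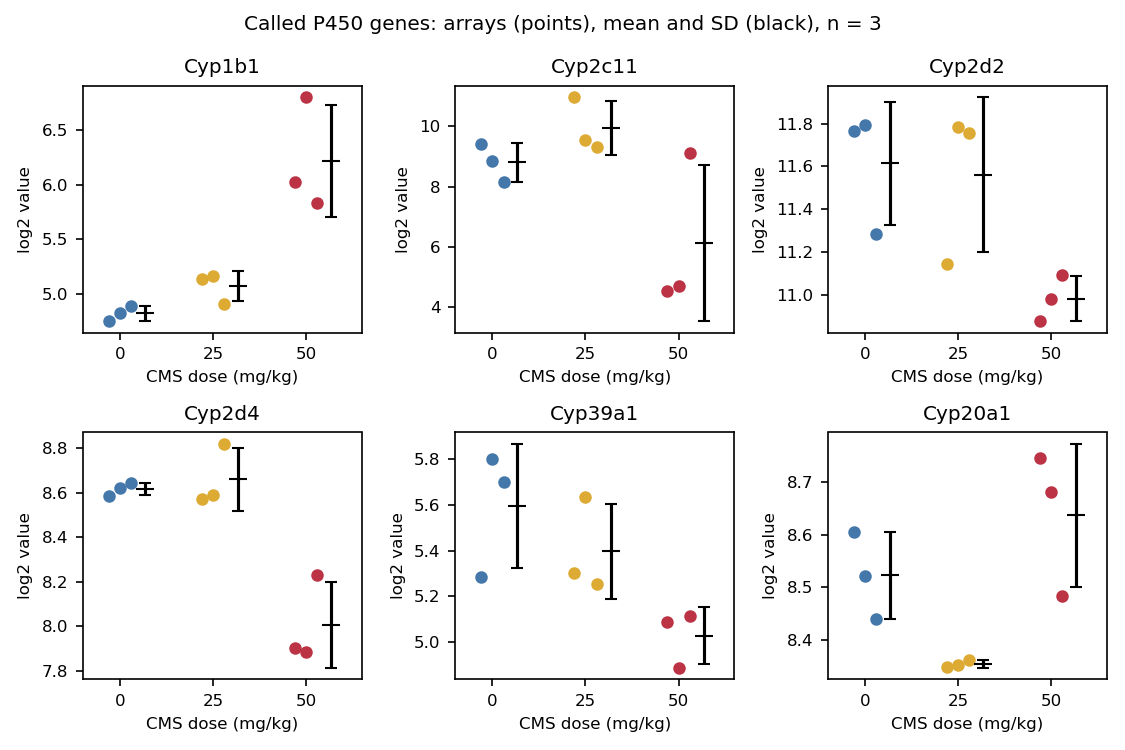
Log2 value (y axis, a separate scale per gene) against CMS dose (x axis, mg/kg) for the 6 P450 genes called in a comparison; points are arrays, and the black marks are the mean and SD of 3 arrays. The CMS50 points of Cyp1b1 (5.83 to 6.80) lie above all other arrays, those of Cyp2d4 (7.89 to 8.23) and Cyp39a1 (4.89 to 5.11) below them, and CMS50 replicate 3 of Cyp2c11 lies at 9.11 among the vehicle arrays.

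Among the Cyp1 genes, which oxidise polycyclic hydrocarbons and oestrogens and are known targets of the aryl hydrocarbon receptor, Cyp1b1 had the only testable signal. It read 4.75, 4.83 and 4.89 in vehicle, 5.13, 5.16 and 4.91 in CMS25 and 6.03, 6.80 and 5.83 in CMS50. Every CMS50 array lay above every other array, and the CMS25 arrays lay just above the vehicle arrays. Cyp1b1 was 2.64-fold higher in CMS50 than in vehicle (log2 difference 1.40, SE 0.215, 95% interval 0.92 to 1.89, limma adjusted p = 0.00325). Its vehicle mean was under 5, so it was tested through its CMS50 values. The call was also made with no minimum, and the difference lay between 1.11 and 1.60 when any 1 array was left out. Cyp1a1, the classical target of that receptor, read 4.60 to 4.87 in vehicle and 4.11 to 4.63 in CMS50, and Cyp1a2 read 3.51 to 4.71 and 3.80 to 4.30, both under the minimum and with overlapping arrays. The receptor gene Ahr itself read 3.56 to 4.30 over all arrays. Ahrr, the gene of that receptor's repressor, was under the minimum, with means of 3.67 in vehicle and 4.18 in CMS50. With no minimum Ahrr was called higher (0.51, limma adjusted p = 0.027). Of the markers tested, 9 of 9 for macrophages and 5 of 6 for fibroblasts were called higher in CMS50, beside 19.6% of all tested genes. Mrc1 was among the 9 only through its CMS50 values. With no minimum, chosen after seeing the data, the counts were 10 of 11 and 4 of 7, beside 22.8% of all genes called in either direction. The part of these cells in the Cyp1b1 difference was not tested.

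Of the 7 tested fatty acid hydroxylases of the Cyp4 family 0 were called. Their differences ran from -0.47 to 0.37, with a median of -0.17. Cyp4a1, a textbook target of the receptor PPAR alpha, read 10.45, 10.15 and 10.46 in vehicle and 10.55, 11.07 and 10.55 in CMS50. All 3 CMS50 arrays were above the vehicle arrays, but the difference of 0.37 (95% interval -0.03 to 0.76) did not pass the test (limma adjusted p = 0.138). Cyp4a3 scattered within every group, with 13.44, 12.40 and 12.27 in vehicle, 13.25, 13.17 and 12.28 in CMS25 and 12.71, 11.45 and 13.43 in CMS50. Its difference of -0.18 had a 95% interval from -1.30 to 0.95, which reaches past a halving.

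Cyp4a8 was read by 2 probe sets that disagreed in direction. The one used, with the higher mean, gave -0.17 (95% interval -0.68 to 0.35). The other read 10.67, 11.57 and 11.52 in vehicle and 11.96, 12.34 and 11.81 in CMS50, without overlap, and gave 0.78 (limma adjusted p = 0.0742 over all probe sets). No direction is given for Cyp4a8 for that reason.

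Cyp4f1, which hydroxylates arachidonic acid and leukotrienes, read 11.40, 11.53 and 11.05 in vehicle and 10.52, 10.84 and 11.21 in CMS50. CMS50 replicate 3 lay within the vehicle range, and the difference of -0.47 was not called (limma adjusted p = 0.0768). Cyp4v3, a fatty acid hydroxylase whose human counterpart is mutated in a retinal dystrophy, read 8.36 to 8.54 in vehicle and 8.05 to 8.15 in CMS50. Its groups did not overlap, and the difference of -0.37 was not called either (limma adjusted p = 0.0978). Cyp4b1 differed by 0.20 (95% interval -0.34 to 0.75) and Cyp4f6 by 0.11 (95% interval -0.24 to 0.46). Cyp4f4, Cyp4f5 and Cyp4f17 were under the minimum.

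Cyp2c11 gave the widest spread of any tested member. The enzyme, known from male rat liver, hydroxylates steroids and epoxidises arachidonic acid. It read 9.41, 8.85 and 8.14 in vehicle, 10.97, 9.53 and 9.31 in CMS25 and 4.52, 4.71 and 9.11 in CMS50. CMS50 replicates 1 and 2 lay far below every vehicle array, and CMS50 replicate 3 lay among them. The difference between CMS50 and vehicle was -2.69 (SE 1.07, 95% interval -5.11 to -0.27) and was not called (limma adjusted p = 0.0848). Without CMS50 replicate 3 it was -4.19 and was called (limma adjusted p = 0.000821). With arrays weighted by their fit it was -3.30 (limma adjusted p = 0.0138). Without vehicle replicate 1, where liver genes were high, it was -2.39. The highest Cyp2c11 value was on CMS25 replicate 1, where 4 of 6 adipocyte markers were also higher than on any other array, Plin1 at 6.52 against 3.29 to 3.56 among them. The adipocyte list averaged 5.36 to 5.84 on vehicle, 5.26 to 7.36 on CMS25 and 5.34 to 5.53 on CMS50 arrays, and its part in the Cyp2c11 value was not tested.

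Sequence before the annotated start is shown for 3 members with lower values in CMS50 against vehicle or CMS25, so that the starts of a Cyp2c, a Cyp2d and a sterol enzyme gene can be set side by side. Each is the 250 bases upstream of the start from RefSeq, rat assembly GRCr8, 5′ to 3′ on the gene's strand, at chr1:246174966-246175215 (plus strand) for Cyp2c11, chr7:115819282-115819531 (minus strand) for Cyp2d2 and chr9:24804061-24804310 (minus strand) for Cyp39a1. Capitals mark matches on either strand, anywhere in the window, to TATAAA, the letters of a TATA box, and to AGGTCA, the core motif of nuclear receptor sites. These motifs do not overlap here.
Cyp2c11: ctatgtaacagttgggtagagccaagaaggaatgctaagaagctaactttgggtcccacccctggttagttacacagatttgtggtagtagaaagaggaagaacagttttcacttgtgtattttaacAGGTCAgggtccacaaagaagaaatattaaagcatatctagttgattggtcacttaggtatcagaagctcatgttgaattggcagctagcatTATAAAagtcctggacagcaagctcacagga
Cyp2d2: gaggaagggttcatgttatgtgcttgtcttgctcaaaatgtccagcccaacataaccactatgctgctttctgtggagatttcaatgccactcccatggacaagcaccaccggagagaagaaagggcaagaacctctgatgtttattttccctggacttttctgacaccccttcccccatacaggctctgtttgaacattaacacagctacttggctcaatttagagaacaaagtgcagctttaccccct
Cyp39a1: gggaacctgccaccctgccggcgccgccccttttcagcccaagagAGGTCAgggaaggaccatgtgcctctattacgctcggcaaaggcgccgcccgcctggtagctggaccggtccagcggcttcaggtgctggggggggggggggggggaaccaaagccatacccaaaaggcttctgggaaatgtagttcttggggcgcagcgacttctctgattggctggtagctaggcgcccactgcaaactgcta
Cyp2c11 has TATAAA starting 31 bases and AGGTCA starting 123 bases before the start, Cyp39a1 has AGGTCA starting 205 bases before it, and Cyp2d2 has no match in this window. TATAAA occurs in 12.9% of 33469 rat windows of this length and in 12 of the 44 members with a window (27.3%). AGGTCA occurs in 14.1% of windows and in 16 of the 44 members (36.4%). Each member was counted from a single window, but the share of all windows was not reduced to a single window per gene. The shares of windows and of members are therefore not counted alike. A match describes letters and not a binding site.

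Cyp2c23, the main epoxygenase of the rat kidney, read 13.34, 13.32 and 13.31 in vehicle and 12.89, 13.33 and 13.32 in CMS50. Only CMS50 replicate 1 lay clearly below the vehicle arrays, and the difference was -0.15 (95% interval -0.42 to 0.12). That interval excludes a halving. The other tested epoxygenases were Cyp2j3 at -0.54 (95% interval -1.30 to 0.22) and Cyp2j4 at -0.32 (95% interval -0.84 to 0.20). Their arrays overlapped between groups, and neither was called. A second probe set of Cyp2j3 gave -0.60 and was not called.

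The Cyp2d genes, which oxidise many basic drugs, gave lower values in CMS50. Cyp2d4, known from rat brain as well as kidney, read 8.59, 8.62 and 8.64 in vehicle, 8.57, 8.59 and 8.82 in CMS25 and 7.91, 7.89 and 8.23 in CMS50. All CMS50 arrays lay below all others, with replicate 3 nearest to them. Cyp2d4 fell by 0.61 (SE 0.114, 95% interval -0.87 to -0.35, limma adjusted p = 0.0058), which is 1.53-fold. It stayed called whichever array was left out, with differences from -0.72 to -0.55, and its second probe set gave -0.69 (limma adjusted p = 0.0445 over all probe sets).

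Cyp2d2, the rat debrisoquine hydroxylase, read 11.77, 11.79 and 11.28 in vehicle, 11.14, 11.78 and 11.76 in CMS25 and 10.88, 10.98 and 11.09 in CMS50. The CMS50 arrays were the lowest, and of the vehicle arrays replicate 3 lay nearest to them. Cyp2d2 fell by 0.63 (SE 0.193, 95% interval -1.07 to -0.20, limma adjusted p = 0.0355). The call was lost without vehicle replicate 1, the array with liver genes (-0.56, adjusted p = 0.105). Leaving out vehicle replicate 2 (adjusted p = 0.115), CMS50 replicate 1 (0.109) or CMS50 replicate 2 (0.092) ended it too, as did a fit with cyclic loess scaling (adjusted p = 0.0516).

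In the current gene order Cyp2d3 lies next to Cyp2d2, and Cyp2d4 lies beyond it with 2 protein-coding genes between, all on chromosome 7. Cyp2d3 was under the minimum and read 5.87, 5.22 and 4.82 in vehicle and 4.54, 4.36 and 4.70 in CMS50. With no minimum it was called lower (-0.77, limma adjusted p = 0.0414), and without vehicle replicate 1 it was not (-0.49, adjusted p = 0.0854). Closely related genes of this cluster can share probe matches, which was not tested.

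The remaining Cyp2 genes did not pass the test. Cyp2e1, which oxidises ethanol and paracetamol, read 11.46, 11.34 and 11.60 in vehicle and 11.36, 11.16 and 11.90 in CMS50. The CMS50 arrays lay on both sides of the vehicle arrays, and the difference was 0.01 (95% interval -0.42 to 0.44). Cyp2u1, a fatty acid hydroxylase, read 6.28, 6.31 and 6.44 in vehicle and 6.73, 6.82 and 6.67 in CMS50. Its groups did not overlap, and the difference of 0.40 (95% interval 0.08 to 0.72) missed the threshold (limma adjusted p = 0.0608). Cyp2s1 and Cyp2t1 differed by -0.17 and 0.02 with overlapping arrays. The Cyp2a, Cyp2b, Cyp2f and Cyp2g genes, known from liver, skin, lung and nose, were all under the minimum.

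Of the sterol and bile acid enzymes, Cyp39a1, an oxysterol hydroxylase, was called. It read 5.29, 5.80 and 5.70 in vehicle, 5.30, 5.63 and 5.25 in CMS25 and 5.09, 4.89 and 5.11 in CMS50. The CMS50 arrays were the lowest of the 9, and of the vehicle arrays replicate 1 lay nearest to them. Cyp39a1 fell by 0.57 (SE 0.154, 95% interval -0.91 to -0.22, limma adjusted p = 0.0237), and it stayed called without vehicle replicate 1. The call was lost without vehicle replicate 2 (adjusted p = 0.0848), vehicle replicate 3 (0.0752), CMS50 replicate 1 (0.0585) or CMS50 replicate 2 (0.0852). Cyp27a1, the mitochondrial sterol hydroxylase, read 7.20, 7.25 and 7.19 in vehicle and 6.93, 7.13 and 7.10 in CMS50. Its groups did not overlap, but the difference of -0.16 was not called (limma adjusted p = 0.364). Cyp46a1, the cholesterol hydroxylase of brain, differed by 0.07.

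Cyp8b1, which makes the precursor of cholic acid in liver, was under the minimum. It read 5.65, 5.44 and 4.81 in vehicle, 5.11, 5.05 and 6.45 in CMS25 and 4.16, 3.69 and 4.22 in CMS50, with all CMS50 arrays lowest. With no minimum it was called (-1.27, limma adjusted p = 0.0332), and without vehicle replicate 1 it was not (-1.10, adjusted p = 0.0998). Cyp7a1 and Cyp7b1, also of the bile acid pathways, ranged over all arrays from 3.41 to 4.42 and from 2.35 to 2.86.

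Cyp26b1, which breaks down retinoic acid, read 6.94, 7.38 and 7.37 in vehicle and 6.97, 6.42 and 6.93 in CMS50. The groups overlapped by a small margin at vehicle replicate 1, and the difference of -0.46 (95% interval -1.11 to 0.20) was not called. Cyp20a1, an orphan member with no settled substrate, differed by 0.11 and was not called.

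With no minimum, 8 of the 56 members were called between CMS50 and vehicle, beside 22.8% of 14217 genes. The calls added were Cyp2d3 and Cyp8b1, lower, and Cyp2j10 and Cyp4f17, higher. Cyp2j10 read 3.86, 3.76 and 3.85 in vehicle, 4.10, 4.25 and 4.14 in CMS25 and 4.55, 4.38 and 4.41 in CMS50. Its 3 groups did not overlap, and the difference at CMS50 was 0.62 (limma adjusted p = 0.00263). Cyp4f17 read 4.39, 4.52 and 4.34 in vehicle and 4.95, 5.61 and 5.04 in CMS50, a difference of 0.78 (limma adjusted p = 0.0354). Without vehicle replicate 1 and with no minimum, the calls were Cyp1b1, Cyp2d4, Cyp2j10, Cyp39a1 and Cyp3a9. The count of all genes called in that fit is not given here, so the shorter list cannot be set against all genes. RMA compresses differences of such dim probe sets.

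The second comparison asked whether 25 mg/kg shifted the family. No member was called (0 of 23), beside 0% of all genes (0 of 10337), and at an unadjusted p under 0.05 there were 0 members and 604 genes in the limma fit. The median difference was 0.04 over members and -0.02 over all tested genes. Of the genes called at the higher dose, Cyp1b1 differed by 0.25, Cyp2d2 by -0.05, Cyp2d4 by 0.04 and Cyp39a1 by -0.20, all with adjusted p of 0.905 or more. The groups did not overlap for 4 of the 23 members, beside 12.1% of all tested genes: Cyp1b1 and Cyp2c23 were higher on all CMS25 arrays, and Cyp20a1 and Cyp2t1 lower. Cyp2c23 read 13.44, 13.39 and 13.34 in CMS25, a difference of 0.07 from vehicle. Cyp2c11 differed by 1.14, and by 0.62 without CMS25 replicate 1. The CMS25 calls for the family were 0 under every alternative run, and an adjusted p above the threshold does not show that the groups were alike.

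The third comparison set the higher dose against the lower one. It shares the CMS50 arrays with the first comparison, so that both move together with those arrays. Cyp1b1 and Cyp20a1 were higher in CMS50 than in CMS25, and Cyp2c11, Cyp2d2 and Cyp2d4 lower. These were 5 of 23 members (21.7%), beside 30.3% of all tested genes, with 20.8% called higher and 9.43% called lower. After cyclic loess scaling the split of all called genes moved from 2153 higher and 975 lower to 1746 higher and 1225 lower. At an unadjusted p under 0.05 there were 10 members and 4610 genes, and 9 members did not overlap between groups, beside 45.7% of all tested genes.

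Cyp1b1 differed by 1.15 (limma adjusted p = 0.00593) and Cyp2d4 by -0.65 (adjusted p = 0.00481), and both stayed called whichever array was left out. Cyp2c11 differed by -3.82 (SE 1.07, limma adjusted p = 0.0269). CMS50 replicates 1 and 2, at 4.52 and 4.71, lay far below all CMS25 arrays, and CMS50 replicate 3, at 9.11, just below the lowest of them, at 9.31. This call was lost without any 1 of the CMS25 arrays (adjusted p from 0.0508 to 0.0762) and without CMS50 replicate 1 (0.095) or CMS50 replicate 2 (0.0964). Without CMS50 replicate 3 the difference was -5.32. Cyp2d2 differed by -0.58 (adjusted p = 0.049), and this call held in 2 of the 9 fits that leave out 1 array.

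Cyp20a1 read 8.35, 8.35 and 8.36 in CMS25 and 8.75, 8.68 and 8.48 in CMS50, without overlap, while the vehicle arrays at 8.61, 8.52 and 8.44 lay above CMS25 and overlapped CMS50. The difference of 0.28 (SE 0.0918, limma adjusted p = 0.0448) was lost in 8 of the 9 fits that leave out 1 array. The family count was 3 without vehicle replicates 1 or 2 or CMS25 replicates 1 or 3, and 2 without CMS25 replicate 2, CMS50 replicate 1 or CMS50 replicate 2. Of all genes, 3128 were called, and 2008 with CMS25 replicate 3, 1737 with CMS50 replicate 1 or 1569 with CMS50 replicate 2 left out. With no minimum 8 members were called, beside 22.4% of all genes. The added dim members were Cyp21a1 (-0.54), Cyp8b1 (-1.51), Cyp2j10 (0.29), Cyp3a9 (0.85) and Cyp4f17 (0.72), and Cyp2d2 and Cyp20a1 were then not called.

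**Figure D4:**
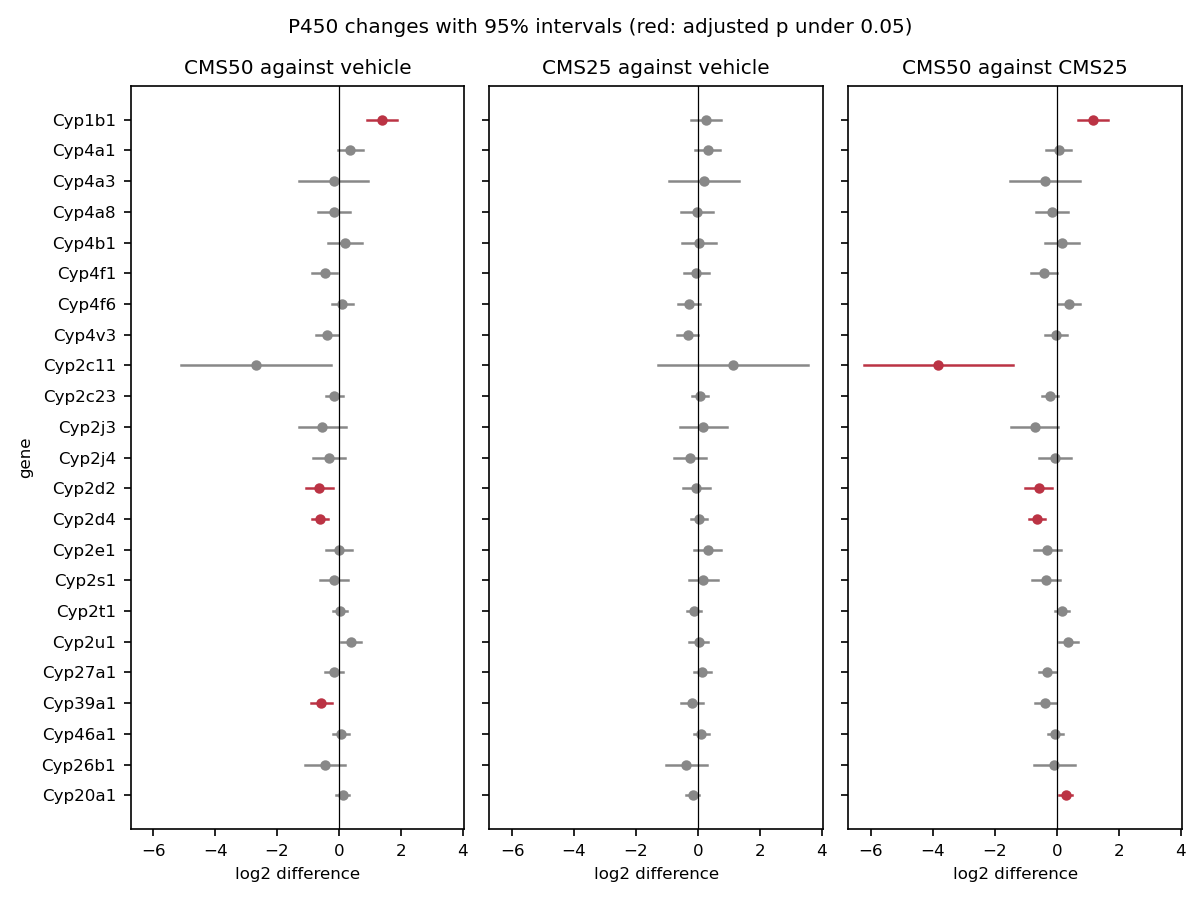
Log2 difference (x axis) with its 95% interval for the 23 tested P450 genes (y axis) in 3 comparisons, red where the adjusted p is under 0.05. At CMS50 against vehicle Cyp1b1 (1.40) lies to the right and Cyp2d2 (-0.63), Cyp2d4 (-0.61) and Cyp39a1 (-0.57) to the left, at CMS25 against vehicle no gene is red, and Cyp2c11 has the widest interval in each panel.

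The enzymes that work with P450s were read from 5 lists. In CMS50 against vehicle, 1 of 16 tested electron donors and haem enzymes was called higher and 4 lower, with a median of -0.13. The counts of all lists stand beside the 19.6% of all tested genes called higher and the 11.4% called lower. Por, the reductase that serves all microsomal P450s, differed by 0.09 (95% interval -0.14 to 0.32) and was not called. Cyb5a, cytochrome b5, which passes electrons to some P450s, read 12.27, 12.26 and 12.10 in vehicle and 11.12, 11.25 and 11.59 in CMS50. The groups did not overlap, and Cyb5a fell by 0.89 (limma adjusted p = 0.0025). Pgrmc1, a haem-binding partner of P450s, fell by 0.57, Hmox2 by 0.54, and Fdx1, the mitochondrial ferredoxin, by 0.48. Hmox1, the inducible haem-degrading enzyme, rose by 1.29 (limma adjusted p = 0.0033). It was tested only through its CMS50 values, and with no minimum it was called too (adjusted p = 0.00352).

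Of 15 tested eicosanoid enzymes, 3 were called higher and 1 lower, with a median of 0.02. Hpgd, which inactivates prostaglandins, rose by 1.43, Ptgis, the prostacyclin synthase, by 0.77, and Alox5ap, of leukotriene synthesis, by 0.70. Alox5ap was tested only through its CMS50 values, and with no minimum it was called too (limma adjusted p = 0.0393). Ptgs2, the inducible prostaglandin synthase, was under the minimum and read 5.79, 4.55 and 5.30 in vehicle and 3.09, 3.29 and 3.63 in CMS50. Its groups did not overlap, and with no minimum it was called lower (-1.88, limma adjusted p = 0.00268). That made 3 higher and 2 lower of 18, beside 22.8% of all genes called in either direction with no minimum. Ephx1, the microsomal epoxide hydrolase, fell by 0.54 (limma adjusted p = 0.0092). Ephx2, which hydrolyses the epoxides made by Cyp2c and Cyp2j enzymes, read 11.03, 10.55 and 9.91 in vehicle, 10.16, 6.32 and 9.20 in CMS25 and 8.65, 9.92 and 10.63 in CMS50. CMS25 replicate 2 lay far below the rest, and the CMS50 difference of -0.77 had a 95% interval from -2.75 to 1.22.

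Of 15 tested regulators, 0 were called higher and 2 lower, Rora by 0.65 and Ppard by 0.52, with a median of -0.10. Hnf4a, which drives many liver and tubule P450 genes, differed by -0.22 (limma adjusted p = 0.166), and Ppara and Ahr were under the minimum. With no minimum 1 of 22 regulators, Ahrr, was called higher and 3 lower, beside 22.8% of all genes called in either direction. Of 14 tested PPAR alpha targets other than P450s, 3 were called lower, with a median of -0.05. Ehhadh, of peroxisomal fatty acid oxidation, fell by 1.25, Acadm by 0.66 and Hadhb by 0.39, the last being enzymes of mitochondrial fatty acid oxidation.

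The other drug oxidation and conjugation enzymes had 5 of 13 called lower and 0 higher, with a median of -0.53. Sult1c2, a sulfotransferase, read 11.85, 11.40 and 11.99 in vehicle and 10.61, 9.74 and 11.34 in CMS50, and fell by 1.18 (limma adjusted p = 0.0306). Tpmt, which methylates thiopurines, fell by 1.12, the flavin monooxygenases Fmo2 and Fmo5 by 0.54 each, and Mgst1, a microsomal glutathione transferase, by 0.42. All 5 lists had 0 calls in CMS25 against vehicle. Beside these falls, 7 of 15 proximal tubule markers were called lower and 1 higher in CMS50, with a median of -0.24. Of 5 markers of other kidney cells, 3 were called lower and 0 higher, with a median of -0.79. The 3 were Umod (-1.27), Slc12a1 (-0.79) and Nphs1 (-1.05), while Slc12a3 (-0.15) and Aqp2 (-0.41) were not called. Of all tested genes 11.4% were called lower and 19.6% higher. The part of tubule or other kidney cell number in the falls of the listed enzymes was not tested.

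**Figure D5:**
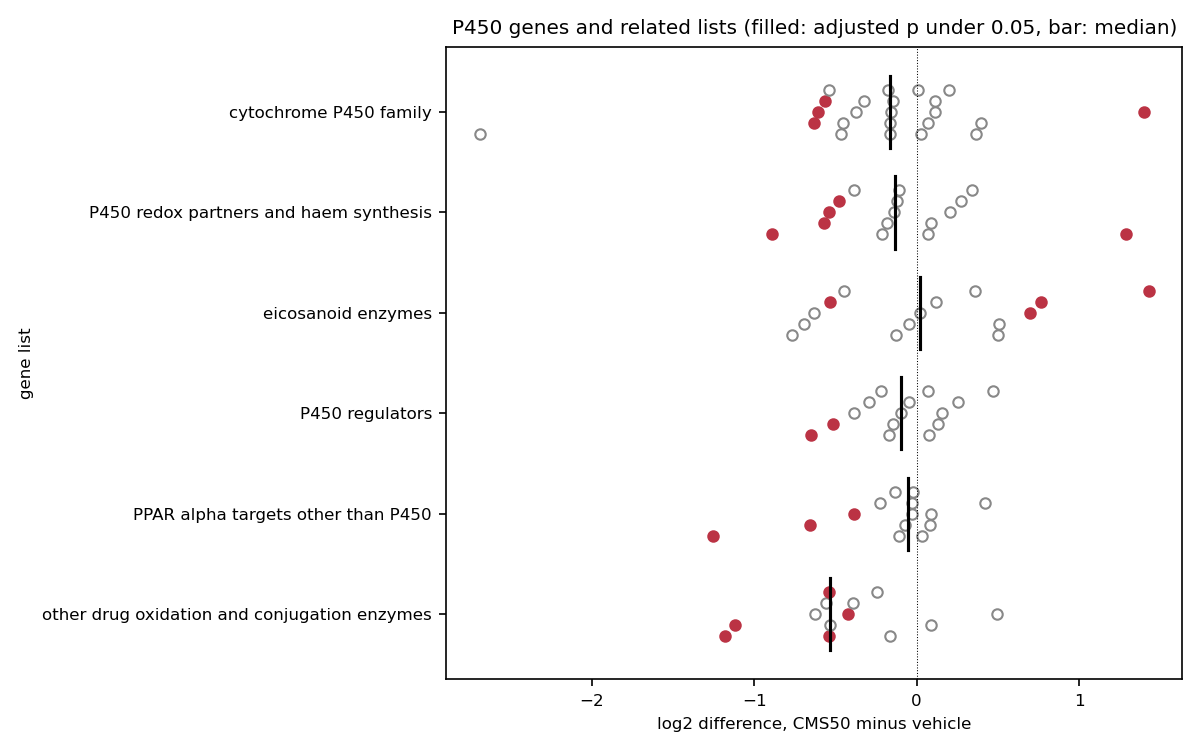
Log2 difference between CMS50 and vehicle (x axis) of each tested gene, by list (y axis); filled red points have an adjusted p under 0.05, open points do not, and the bar is the list's median. The P450 genes have 1 filled point to the right and 3 to the left of 0, and the median of the drug oxidation and conjugation enzymes, -0.53, is the lowest of the 6 rows drawn.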

How the data were processed

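Gene expression was measured in kidneys of 9 rats, 3 per dose, on Affymetrix rat arrays. The values as deposited are log2 intensities that Affymetrix Expression Console made by RMA, per the submitters' processing notes; no version of either is given in the sources used here. The method corrects background, equalises the distributions of arrays and summarises probes. It hides a shift shared by all genes and compresses differences of dim probe sets. The table held 31099 probe sets with 0 missing values and was used without further scaling.

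Names came from the platform annotation, an old release: 20826 probe sets had 1 gene symbol, 436 several and 9780 none. All 56 members had a current gene identifier. One probe set, that of highest mean, stood for each of the 14217 genes, and genes with a mean under 5 were left out, leaving 10337. The 56 members came from 63 probe sets, and 6 had more than 1. A further 7 probe sets were annotated to several genes including a member and named none.

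A single limma 3.58.1 model (lmFit, then eBayes, under R 4.3.3) held all 3 groups, with Benjamini-Hochberg adjustment over all genes tested. Labels give the arrays as biological replicates and no batch or hybridisation day, so none could be tested. Figures and sequences were made with Python 3.11.15, and promoter windows came from RefSeq tables of GRCr8. The fit was tested on simulated data. Alternatives covered scaling, the minimum, probe sets, the variance model, array weights, the groups fitted, a replicate block and leaving out each array.

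Named genes were every called member, for each role group the 2 uncalled members with the largest difference at CMS50, a panel of known kidney and liver P450 genes, and up to 4 called genes per related list. A gene under the minimum was named where it was called without one or belongs to the panel; other dim genes were chosen after their values were seen. The members and lists were chosen with earlier results of these data known.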

Additional observations from a re-analysis of the deposited data

How the results depend on the processing

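Cyp1b1 and Cyp2d4 were called in both CMS50 comparisons under every alternative in which they were tested. A minimum of 6 removed Cyp1b1. The family count for CMS50 against vehicle, 4, was 2 with a minimum of 6, 8 with no minimum and 8 with array weights, which added Cyp2c11, Cyp2u1, Cyp4f1 and Cyp4v3. It was 2 to 6 when 1 array was left out. The count for CMS50 against CMS25, 5, was 8 with no minimum and 2 with only the compared groups fitted, and 2 to 7 when 1 array was left out. With no minimum and without vehicle replicate 1, chosen after seeing the data, the counts were 5 and 7. No count over all genes is given for that fit. Counts over all genes ranged from 1687 to 3546 and from 1569 to 3518 when 1 array was left out. Under the other alternatives they ranged from 2865 to 4709 and from 2165 to 4468, beside 3211 and 3128 in the main fit. With no minimum they were 3242 and 3180. The causes were not tested, except that a minimum and a left-out array change the genes or arrays that enter.

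Signs turned only for differences that were not called. At CMS50 against vehicle, Cyp2e1 became -0.023 with median centring and -0.093 with array weights. Cyp2t1 became -0.00398 with centring, -0.015 with cyclic loess and -0.00522 with weights. Cyp4a8 became 0.31 when its probe sets were averaged. Leaving out 1 array gave ranges of -0.63 to 0.36 for Cyp4a3, -0.21 to 0.16 for Cyp2e1, -0.069 to 0.11 for Cyp2t1, -0.023 to 0.12 for Cyp46a1, -0.018 to 0.31 for Cyp4b1 and -0.041 to 0.21 for Cyp4f6. At CMS25 against vehicle they were -0.22 to 0.15 for Cyp2d2 and -0.038 to 0.087 for Cyp2d4.

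The replicate numbers did not pair the arrays: correlations of same-numbered arrays' deviations ran from -0.18 to 0.26, with 3 of 9 over 0.1, and an array correlated best with its own number in 7 of 18 cases. With the replicate block the family counts were 4 for CMS50 against vehicle, 0 for CMS25 against vehicle and 4 for CMS50 against CMS25, where Cyp2d2 (adjusted p = 0.0627) and Cyp20a1 (0.0548) were not called and Cyp2j3 was. Over all genes the block gave 2865, 0 and 2857 calls. With 3 arrays a group, intervals such as that of Cyp4a3 reach past a halving.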

Other observations

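A probe set annotated to 2 genes of the Cyp2d subfamily, which therefore names neither, was picked out after its values were seen. It read 11.57, 11.89 and 11.54 in vehicle, 9.86, 11.43 and 11.28 in CMS25 and 9.23, 9.01 and 10.32 in CMS50. The CMS50 and vehicle arrays did not overlap, and CMS25 replicate 1 lay below CMS50 replicate 3. In the limma fit of every probe set it differed by -2.15 (SE 0.432, adjusted p = 0.00802) between CMS50 and vehicle and by -1.34 (adjusted p = 0.0481) between CMS50 and CMS25. A probe set annotated to 2 Cyp4a genes read 14.09, 14.23 and 14.00 in vehicle and 13.54, 13.43 and 14.09 in CMS50, and its difference of -0.42 was not called (adjusted p = 0.0773).

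Cyp3a9, a drug-oxidising gene known from rat liver and brain, did not follow the other 3 Cyp3 genes, which were high on vehicle replicate 1. It read 4.28, 3.95 and 3.42 in vehicle, 3.60, 3.39 and 3.80 in CMS25 and 4.59, 4.38 and 4.38 in CMS50, under the minimum on every array. All CMS50 arrays lay above all others.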
